A study of Mus musculus with 8 samples.

Results

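Long intergenic non-coding RNA (lincRNA) genes with ample reads were followed in calvaria (the bony vault of the skull) from newborn mice lacking the potassium channel subunit Girk3, which Kcnj9 encodes. The genes were chosen by their total count over both genotypes: all rows typed as lincRNA in GENCODE mouse release 21 with at least 800 counts summed over the 8 libraries. H19, Meg3, Rian, Mirg, the Snhg genes, genes on X and Y and those at chromosome 1, positions 167320501 to 177329318 (build GRCm38, around Kcnj9), were set aside. This left 115 genes of 4151 lincRNA rows and of 49315 rows in all. Of the other lincRNA rows outside those exclusions, 2333 had counts below that minimum and 1042 had none. All 115 were tested, and 106 had 400 or more counts in each genotype. The other 9 had under 400 in WT and none had under 400 in KO, so those 9 met the minimum through the KO libraries.

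The knockout mice (KO, n = 4) carried a global Girk3 deletion (Girk3-/-), and the comparison mice (WT, n = 4) were wild type. All 8 were female C57BL6 mice aged 2 to 3 days, and each library is bulk RNA of whole calvaria with every cell type it held. The labels give neither litter nor the deleted exons. Nothing says how littermates were spread over the groups, so the p-values below measure the spread between these 8 samples only.

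A lincRNA is a transcript without a long reading frame that does not overlap a coding gene on its own strand. Some stay in the nucleus, where they build or occupy nuclear bodies. Others bind microRNAs or RNA-binding proteins in the cytoplasm, carry microRNAs or small nucleolar RNAs in their introns and exons, or are transcribed beside a coding gene without a known act of the RNA itself. In bone, lincRNAs and microRNA host transcripts are known chiefly from studies of osteoblast differentiation.

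Depth was 35.4 M to 54.3 M counts a library. Kcnj9 had 2, 5, 7 and 9 counts in the libraries labelled KO, against 0, 0, 1 and 4 in those labelled WT. At that depth, and with the deleted exons unknown, Kcnj9 does not check the labels, and each direction below rests on them. The 7 osteoblast markers summed to 84013 ± 13611 depth-scaled counts (CPM) in KO and 91839 ± 7413 CPM in WT (SD, n = 4 each), none was at 0 and 1 of the 7 fell. The KO4 library had reads on 28520 genes, against 24545 to 25729 in the other 7. Muscle RNA varied most: 10 muscle markers summed to 2598, 47.0, 146 and 666 CPM in KO1 to KO4, against 1795, 1390, 19.3 and 1282 CPM in WT1 to WT4.

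RefSeq listed 68 of the 115 genes by symbol or synonym, 63 as non-coding RNA genes. Synonyms were sought only among its non-coding RNA entries, so a gene it renamed as coding would count as unlisted. These counts therefore do not measure how often the label lincRNA held. RefSeq lists Tmem250-ps, 1810058I24Rik and Zfp469 as coding, Gm10076 as a pseudogene and 4632415L05Rik as a transcribed pseudogene. The genes lay on 19 chromosomes and had a median of 2799 exon bases, and 25 had a single exon. Exons of 36 overlapped an exon of another gene on the opposite strand, and 67 overlapped none on either strand. A coding gene started within 1000 bases in the opposite direction beside 18 of them. The median level was 2.24 reads per kilobase of exon, scaled for depth (RPKM). A few genes held most of the reads, with 65.6% of the counts in the top 4 and 22.7% in Malat1 alone.

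Most of the lincRNA genes measured higher in KO calvaria than in WT calvaria, by small amounts. The log2 change (KO over WT) was above 0 for 84 of the 115 genes, or 73.0%, against 49.9% of the 17743 genes tested, and its median was 0.15, against -0.00 over all tested genes. The 9 genes that met the minimum through the KO libraries were all above 0, and without them 75 of 106, or 70.8%, lay above 0 with a median of 0.14. Over the 115 the quartiles were -0.02 and 0.31, and single genes ran from -0.71 to 1.28. Library by library, the median gene lay 0.14, 0.15, 0.17 and 0.13 above the WT mean (log2 CPM) in KO1 to KO4, against 0.01, -0.00, 0.03 and -0.03 in WT1 to WT4. The 4 KO medians lay close together and above the 4 WT medians, which are centred on 0 by construction. In bulk RNA, fewer cells of a type and less RNA per cell cannot be told apart.

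Gene by gene, 6 of the 115 rose in KO and 0 fell (edgeR quasi-likelihood test, adjusted p under 0.05). These 6 are 5.22% of the genes, where 0.445% of all tested genes rose and 0.874% fell, 1.32% in all. At an unadjusted p under 0.05, 30 of the 115 genes were higher and 6 lower. Of all tested genes, 8.29% were higher and 9.11% lower at that level. All 4 KO libraries lay above all 4 WT libraries for 22 of the 115 genes (19.1%), against 4.63% of all tested genes. They lay below them for 3 of the 115, Neat1, Tmem250-ps and Gm17501, where 5.96% of all tested genes did so. DESeq2 counted 18 of the 115 higher and 2 lower, where it called 423 of all tested genes higher and 542 lower. For limma-voom these counts were 6 and 0 of the 115, and 76 and 152 of all tested genes. Without KO2, KO3, WT2 or WT4, BC055402 was the 1 gene of the 115 called by edgeR, and without WT3 it was joined by Gm38901. Without KO2, KO3 and WT3, the 3 libraries low in muscle RNA, 0 were called and 77 of the 115 stayed above 0.

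**Figure D1:**
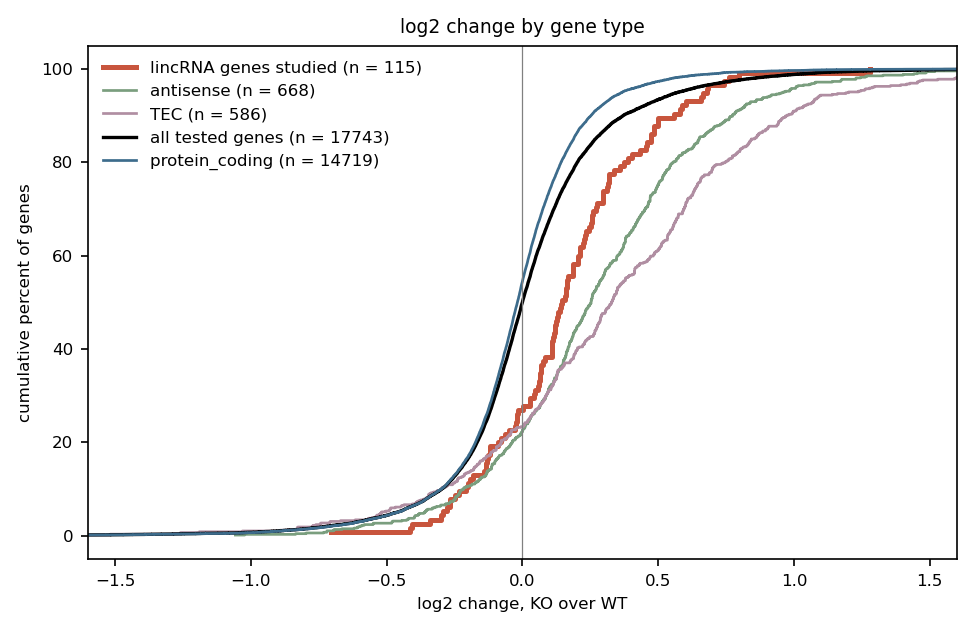
Cumulative percent of genes (vertical axis) against the log2 change, KO over WT (horizontal axis), for the 115 lincRNA genes, antisense, TEC and protein-coding genes and all tested genes. The lincRNA curve lies right of the curve for coding genes, with 73.0% of its genes above 0, and the antisense and TEC curves lie farther right.

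Other non-coding types also had medians above 0. Coding genes had a median of -0.02, with 45.5% above 0. Of other types with at least 800 counts, 117 antisense genes had a median of 0.17, 120 processed transcripts 0.19, and 67 genes of type TEC, which await experimental evidence, 0.24. Among these 117, 120 and 67 genes, all KO libraries lay above all WT libraries for 14.5%, 20% and 11.9%. EdgeR called 0%, 0.833% and 4.48% of them higher, in the same order. The tested lincRNA genes under 800 counts, 414 in number, had a median of 0.16. Genes of type TEC or sense intronic, many of which lie inside introns, took 0.105 ± 0.0118% of the counts in KO, against 0.0812 ± 0.00320% in WT (SD, n = 4 each), and the groups did not overlap. Macrophage markers moved the other way: 8 genes, none at 0, summed to 401 to 484 CPM in KO and 541 to 696 CPM in WT, and 3 of the 8 fell. The part of either in the lincRNA result was not tested.

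Within the 115, the median log2 change was above 0 in each structural class. It was 0.12 for the 79 genes without an exon overlap on the opposite strand, with 54 above 0 and 2 that rose. For the 36 with such an overlap it was 0.18, with 30 above 0 and 4 that rose. The strand setting of the counting is not given, so reads of overlapping partners may not be separable. The 18 genes beside a divergent coding start had a median of 0.16 and edgeR called none, with 4 higher and 1 lower at an unadjusted p under 0.05; DESeq2 called 1 higher and 1 lower and limma-voom 0. All 6 that rose were among the 90 with several exons.

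**Figure D2:**
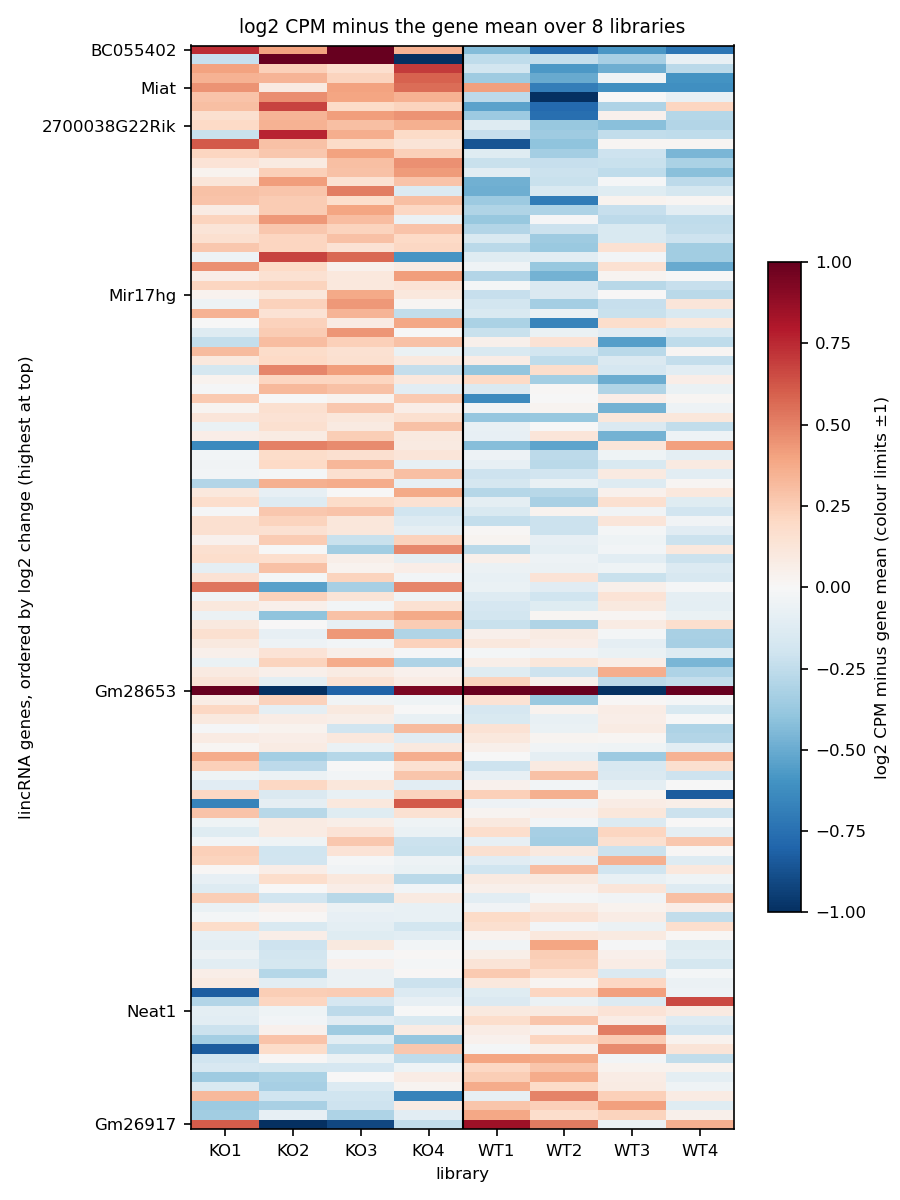
Each row is one of the 115 lincRNA genes, ordered by log2 change, and each column a library; colour gives log2 CPM minus the gene's mean over the 8 libraries, limited to ±1. KO columns are redder in the upper rows, Gm28653 and Gm26917 vary between libraries of a genotype, and BC055402 heads the order at 1.28.

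The 6 genes that rose have, to the extent of the annotation used, no described function, and their promoters are shown to give the sequence at their starts. RefSeq promoters (GRCm38.p6, 250 bases before to 50 after the start) matched 54 of the 115 genes, 4 of them among these 6. Capitals mark motifs found on either strand. The letters searched were GGGCGG for the GC box, CCAAT for the box of that name and TATAAA for the core promoter element. Added to these were CACGTG for an E-box, TGACGTCA for a cyclic AMP response element (CRE) and TGANTCA for AP-1 factors. The windows are, in the gene's direction, chr1:57214947-57215246 on the minus strand, chr5:23850347-23850646 on the plus strand, chr7:81523300-81523599 on the plus strand and chr5:100429486-100429785 on the minus strand.
BC055402: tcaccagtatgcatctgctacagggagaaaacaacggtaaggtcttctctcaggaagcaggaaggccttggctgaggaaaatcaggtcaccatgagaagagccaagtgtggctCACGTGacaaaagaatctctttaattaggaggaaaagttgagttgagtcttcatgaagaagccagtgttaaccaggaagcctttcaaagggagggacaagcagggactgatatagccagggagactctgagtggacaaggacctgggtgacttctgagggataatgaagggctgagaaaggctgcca
2700038G22Rik: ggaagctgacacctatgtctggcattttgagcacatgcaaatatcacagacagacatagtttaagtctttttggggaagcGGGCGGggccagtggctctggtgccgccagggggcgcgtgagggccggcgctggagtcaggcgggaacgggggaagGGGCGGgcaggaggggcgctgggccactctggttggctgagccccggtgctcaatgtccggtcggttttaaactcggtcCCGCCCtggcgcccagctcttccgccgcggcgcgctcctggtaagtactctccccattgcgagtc
2900076A07Rik: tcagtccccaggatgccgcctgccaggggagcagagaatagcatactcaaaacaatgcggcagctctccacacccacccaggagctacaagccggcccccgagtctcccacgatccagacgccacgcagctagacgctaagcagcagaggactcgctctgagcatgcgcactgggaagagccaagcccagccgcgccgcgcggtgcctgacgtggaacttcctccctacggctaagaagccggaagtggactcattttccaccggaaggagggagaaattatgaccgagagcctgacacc
5430416N02Rik: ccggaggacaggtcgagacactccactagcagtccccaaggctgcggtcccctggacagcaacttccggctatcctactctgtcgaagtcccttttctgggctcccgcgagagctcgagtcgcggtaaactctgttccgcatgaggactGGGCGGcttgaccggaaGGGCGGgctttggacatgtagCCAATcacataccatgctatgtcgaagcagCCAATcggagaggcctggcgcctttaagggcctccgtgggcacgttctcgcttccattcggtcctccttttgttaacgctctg

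BC055402 was the window poorest in CG. It held 2 CG dinucleotides and 1 E-box, where those of 2700038G22Rik, 2900076A07Rik and 5430416N02Rik held 23, 20 and 22 CG dinucleotides. The median was 13.5 over the 54 lincRNA windows and 7 over all 32851 RefSeq windows. GC boxes numbered 3 in 2700038G22Rik and 2 in 5430416N02Rik, where 2 CCAAT motifs also lay, and 2900076A07Rik held none of the motifs. Of the 54 lincRNA windows, 25 held a GC box, 17 a CCAAT, 9 a TATAAA, 6 an E-box, 3 an AP-1 and 1 a CRE motif. The shares over all windows were 35.7%, 37.4%, 13.6%, 7.15%, 7.81% and 1.79% in that order. A match describes letters only.

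BC055402 (ENSMUSG00000101429, GRCm38 chromosome 1, 57200645 to 57214993, minus strand) is spliced from 7 exons of 3301 bases in all. It measured 7.31, 5.78, 8.90 and 5.57 CPM in KO, against 3.24, 2.55, 2.93 and 2.65 CPM in WT. Every KO library was above every WT library, and the spread was wider among the KO libraries. The mean was 6.89 ± 1.55 CPM in KO and 2.84 ± 0.310 CPM in WT (SD, n = 4 each), a 2.42-fold difference with a log2 change of 1.28 ± 0.169 (SE; edgeR adjusted p = 0.00485). It was the largest log2 change among the 115. The nearest tested coding gene, 1700066M21Rik, lay 162627 bases away at a log2 change of 0.26 (edgeR adjusted p = 0.298).

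2700038G22Rik (ENSMUSG00000097180, chromosome 5, 23850597 to 23855038, plus strand) overlapped no other exon. Its levels were 8.61, 9.54, 9.23 and 9.59 CPM in KO, against 6.86, 5.77, 5.61 and 6.12 CPM in WT. The KO libraries lay close together and above all WT libraries, at 9.24 ± 0.452 CPM in KO and 6.09 ± 0.556 CPM in WT (SD, n = 4 each). The log2 change was 0.60 ± 0.103 (edgeR adjusted p = 0.0181). Tomm7, a subunit of the mitochondrial import pore 6436 bases away, had a log2 change of -0.12 (edgeR adjusted p = 0.778).

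5430416N02Rik, listed by RefSeq also as Adapt33 (ENSMUSG00000097772, chromosome 5, 100420842 to 100429535, minus strand), was the third on that chromosome with Gm38102 and 2700038G22Rik. It had 9.82, 10.8, 10.5 and 10.98 CPM in KO, against 7.35, 7.74, 8.09 and 7.59 CPM in WT. The groups were apart and tight, with 10.5 ± 0.516 CPM in KO and 7.69 ± 0.308 CPM in WT (SD, n = 4 each) and a log2 change of 0.45 ± 0.0890 (edgeR adjusted p = 0.0311). Small RNA models on the opposite strand overlap 11.3% of its exon bases. Sec31a, a coat protein of vesicles leaving the endoplasmic reticulum, lay 4608 bases away at a log2 change of -0.03 (edgeR adjusted p = 0.885).

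Gm17275 (ENSMUSG00000097347, chromosome 1, 180802568 to 180809483, plus strand) shares 25.02% of its exon bases with H3f3a, a replication-independent histone gene on the opposite strand. It had 10.1, 10.6, 11.6 and 10.3 CPM in KO, against 8.05, 6.92, 7.60 and 6.39 CPM in WT, with no overlap of the groups. The means were 10.6 ± 0.631 CPM in KO and 7.24 ± 0.730 CPM in WT (SD, n = 4 each), and the log2 change was 0.56 ± 0.103 (edgeR adjusted p = 0.0231). H3f3a stood at 209 ± 18.0 CPM in KO and 208 ± 7.14 CPM in WT, a log2 change of 0.01 (edgeR adjusted p = 0.975).

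Gm38102 (ENSMUSG00000104156, chromosome 5, 123133939 to 123137695, plus strand) lies in a dense cluster beside Setd1b, which encodes a histone methyltransferase. It had 7.25, 6.45, 6.16 and 8.91 CPM in KO, against 4.83, 3.68, 3.91 and 4.53 CPM in WT. The groups did not overlap, at 7.19 ± 1.23 CPM in KO and 4.24 ± 0.537 CPM in WT (SD, n = 4 each), with a log2 change of 0.76 ± 0.148 (edgeR adjusted p = 0.0302). AI480526 on the opposite strand covers 76.0% of its exon bases, so reads of the pair may not be separable.

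The other lincRNAs of the cluster, named after their values were seen, also lay higher without passing the test. AI480526 (chromosome 5, 123133723 to 123141666, minus strand) had 27.0, 27.1, 24.99 and 25.6 CPM in KO, against 22.9, 20.997, 19.1 and 19.8 CPM in WT. Its groups did not overlap, and its log2 change was 0.34 ± 0.0761 (edgeR adjusted p = 0.0527). 4932422M17Rik, which shares 61.5% of its exon bases with AI480526, had a log2 change of 0.47 ± 0.148 (edgeR adjusted p = 0.136). Setd1b measured 48.5 ± 5.97 CPM in KO and 38.6 ± 2.44 CPM in WT, a log2 change of 0.33 ± 0.0903 (edgeR adjusted p = 0.0979). Rhof, a small GTPase gene 1247 bases from Gm38102, went the other way: it fell to 7.97 ± 0.581 CPM in KO, against 11.7 ± 1.604 CPM in WT, with a log2 change of -0.55 ± 0.114 (edgeR adjusted p = 0.0358).

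**Figure D3:**
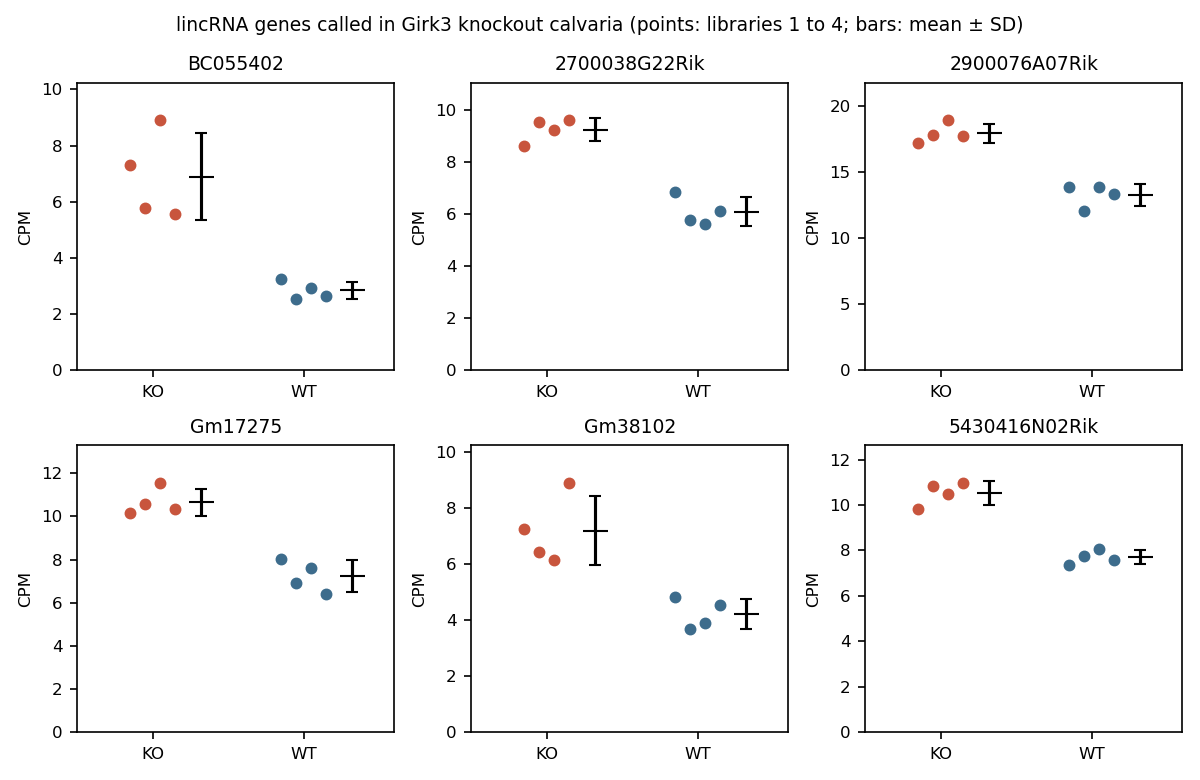
CPM (vertical axis, from 0) of the 6 lincRNA genes that rose in KO calvaria, with points for libraries 1 to 4 of each genotype and bars for mean ± SD. In each panel all KO points lie above all WT points, from 17.2 to 18.9 in KO against 12.1 to 13.9 in WT for 2900076A07Rik.

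MicroRNA host genes form a class of 8 among the 115, counted where a microRNA gene lay wholly within the gene on its strand. Of these, 7 had a log2 change above 0, and the median over the 8 was 0.35. A230057D06Rik, counted among the 7, had under 400 counts in WT and so met the minimum through the KO libraries. Gm26532 (log2 change -0.27), which a microRNA gene overlaps only in part, was not counted as a host. The mature sequences of 3 hosts are shown to identify what the transcripts carry (RefSeq, GRCm38.p6), with the seed, bases 2 to 8, in capitals. The first belongs to 2900076A07Rik, the next 6 to Mir17hg and the last to E130102H24Rik.
miR-1839-5p: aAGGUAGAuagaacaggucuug
miR-17-5p: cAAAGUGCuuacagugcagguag
miR-20a-5p: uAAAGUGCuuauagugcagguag
miR-18a-5p: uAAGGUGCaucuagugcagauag
miR-19a-3p: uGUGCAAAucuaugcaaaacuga
miR-19b-3p: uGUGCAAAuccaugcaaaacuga
miR-92a-3p: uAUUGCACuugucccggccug
miR-101a-3p: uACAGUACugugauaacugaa

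Within the Mir17hg cluster, miR-17-5p and miR-20a-5p share a seed, as do miR-19a-3p and miR-19b-3p. The libraries measure the host RNA, and mature microRNAs were not measured. 2900076A07Rik (ENSMUSG00000097277, chromosome 7, 81523550 to 81531498, plus strand), the host of Mir1839, was the host that rose. It had 17.2, 17.9, 18.9 and 17.7 CPM in KO, against 13.9, 12.1, 13.9 and 13.3 CPM in WT. The groups were well apart, at 17.9 ± 0.713 CPM in KO and 13.3 ± 0.854 CPM in WT (SD, n = 4 each), and the log2 change was 0.43 ± 0.0784 (edgeR adjusted p = 0.0228). A TEC gene on the opposite strand, Gm37829, covers 14.5% of its exon bases.

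Mir17hg, whose microRNAs promote proliferation and are needed for normal skeletal growth in mice, had 13.5, 14.2, 17.1 and 14.2 CPM in KO, against 11.2, 11.9, 13.2 and 10.9 CPM in WT. All KO libraries lay above all WT libraries, yet the log2 change of 0.32 ± 0.0992 missed the threshold (edgeR adjusted p = 0.138). E130102H24Rik, the host of Mir101a, had 3.72, 4.201, 4.00 and 3.89 CPM in KO, against 2.54, 1.37, 3.04 and 2.90 CPM in WT. These groups did not overlap either (log2 change 0.68 ± 0.216, edgeR adjusted p = 0.143). Gm37233, the host of Mir5103, also had separate groups, 2.77 to 3.87 CPM in KO and 1.39 to 2.57 CPM in WT (log2 change 0.58 ± 0.212, edgeR adjusted p = 0.19). The remaining hosts overlapped between genotypes. A430106G13Rik, which carries Mir181b-1, stood at 0.39 ± 0.26 and 6720427I07Rik, which carries let-7 genes, at -0.09 ± 0.104 on the log2 scale (edgeR adjusted p = 0.484 and 0.707). A230057D06Rik, which holds a row of Mir344 genes and met the minimum through the KO libraries, stood at 0.11 (edgeR adjusted p = 0.781).

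The last host was low in the libraries low in muscle markers. Gm28653 (chromosome 1, 20669882 to 20684298, plus strand) starts at the same base as RefSeq's Lincmd1, a muscle lincRNA, and holds Mir206 and Mir133b, microRNAs of skeletal muscle. It had 12.8, 0.443, 0.948 and 3.18 CPM in KO, against 6.05, 5.38, 0.0223 and 4.63 CPM in WT, the WT3 value being 1 count and under the floor of 3 counts. Its low libraries, KO2, KO3 and WT3, are the 3 with the least summed muscle marker RNA. The log2 change was 0.11 ± 1.36 (edgeR adjusted p = 0.978), so a difference between genotypes was not detectable.

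The nuclear lincRNAs included some of the most abundant genes, and none passed the test with all 8 libraries. Malat1, a resident of nuclear speckles, had 574, 1783, 1404 and 268 CPM in KO, against 565, 573, 536 and 643 CPM in WT. KO2 and KO3 were high, KO4 was the lowest of all 8 and KO1 lay among the WT values. The mean of 1007 ± 706 CPM in KO against 579 ± 45.2 CPM in WT (SD, n = 4 each) thus came with a log2 change of 0.80 ± 0.578 (edgeR adjusted p = 0.53).

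KO2 and KO3, the libraries high in Malat1, are also the KO libraries low in muscle RNA, while WT3, the lowest in muscle RNA of all, had 536 CPM. Without these 3 libraries the log2 change of Malat1 was -0.49. Neat1, the RNA scaffold of paraspeckles transcribed beside Malat1, had 323, 337, 289 and 344 CPM in KO, against 371, 369, 380 and 368 CPM in WT. Every KO library was below every WT library, at 323 ± 24.6 CPM in KO and 372 ± 5.50 CPM in WT (SD, n = 4 each). Its log2 change of -0.20 ± 0.0714 did not pass the test (edgeR adjusted p = 0.179).

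Miat (also Gomafu), a nuclear RNA known from neurons and retina, had 26.6, 20.8, 25.7 and 28.8 CPM in KO, against 25.9, 12.04, 12.8 and 12.7 CPM in WT. WT1 alone lay within the KO range. The log2 change was 0.68 ± 0.264 (edgeR adjusted p = 0.247) with all libraries and 1.02 without WT1 (edgeR adjusted p = 0.00218). Leaving out any other single library gave an edgeR adjusted p from 0.313 to 0.446, so the call rests on leaving out WT1. The 8 neural markers, none at 0, summed to 29.7 to 41.2 CPM in KO, against 30.05 to 60.5 CPM in WT, with WT1 the highest; their part in the Miat values was not tested.

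The proteins of these nuclear bodies, and those that decay nuclear RNA or process microRNAs, were set beside them in a list of 35 genes. EdgeR called 0 at an adjusted p under 0.05, DESeq2 2, both higher, and limma-voom 0. Of all tested genes edgeR called 1.32%, and DESeq2 called 423 genes higher and 542 lower. In edgeR 6 of the 35 had an unadjusted p under 0.05, all higher in KO, where 8.29% of all tested genes were higher. A log2 change above 0 was found for 24 (68.6%, against 49.9% of all tested genes), with a median of 0.05. For 10 paraspeckle genes the median was 0.06, for 7 nuclear speckle genes -0.01, for 8 nuclear decay genes 0.07 and for 7 microRNA processing genes 0.07. Zfc3h1, named after its values were seen, which links polyadenylated nuclear RNA to the exosome, measured 116 ± 8.84 CPM in KO and 95.1 ± 5.93 CPM in WT (log2 change 0.29 ± 0.0753, edgeR adjusted p = 0.0914).

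The lincRNAs known to act on microRNAs or RNA-binding proteins carry their binding sites in the sequence, and those sites are shown as what makes each RNA recognisable (GENCODE transcripts, both genes on chromosome 2). Norad, here 2900097C17Rik, is known for a repeated protein-binding motif, and capitals mark TGTANATA, searched on the transcript's strand. Cyrano, here 1700020I14Rik, holds a site for miR-7, whose seed and seed match are in capitals. Its transcript also held the seed match at position 762, not shown, with 9 bases paired without gaps, against 13 at position 2952.
Norad at position 1523: actgactgctgTGTATATAgtggacaacag
Norad at position 2754: cagtactactaTGTATATAggggacaaatt
Cyrano at position 2952: gaacaacaaaatcaccaatGTCTTCCattt
miR-7a-5p: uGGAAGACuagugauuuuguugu

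The Norad transcript of 4915 bases held 11 such motifs, 2.24 per kilobase and the highest density among the 115, of which 39 held any; the next had 1.48 per kilobase. Norad had 27.9, 24.5, 26.03 and 33.6 CPM in KO, against 21.3, 21.4, 26.7 and 27.9 CPM in WT, and the groups overlapped. Its log2 change was 0.20 ± 0.117 (edgeR adjusted p = 0.395). Cyrano, which directs decay of miR-7, was steadier, with 170, 167, 165 and 151 CPM in KO, against 143, 150, 166 and 158 CPM in WT. Its log2 change was 0.08 ± 0.071 (edgeR adjusted p = 0.59).

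Levels of different genes were compared per exon length. Gm42418 averaged 535 RPKM over the 8 libraries, Gm10076 219, Malat1 114 and Gm26917 82.7, followed by 1810058I24Rik at 22.8, Tmem250-ps at 21.9, Gm26532 at 21.1 and Cyrano at 19.1. Gm42418 had 1375, 653, 755 and 1332 CPM in KO, against 910, 880, 984 and 942 CPM in WT. KO1 and KO4 lay above and KO2 and KO3 below all WT libraries (log2 change 0.15 ± 0.245, edgeR adjusted p = 0.804). Its opposite-strand partner AY036118 is listed at 0 in every library.

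Gm26917, which lies beside Gm42418 on chromosome 17, had 379, 116, 133 and 210 CPM in KO, against 449, 358, 239 and 319 CPM in WT, and the groups overlapped. Its log2 change of -0.71 ± 0.426 was the lowest of the 115 and did not pass the test (edgeR adjusted p = 0.449). For Gm10076, listed by RefSeq as a pseudogene whose reads may be shared with its parent gene, the log2 change was -0.30 ± 0.0975 (edgeR adjusted p = 0.152). The 3 models that RefSeq lists as coding had log2 changes below 0 and did not pass the test: 1810058I24Rik (Stmp1, a small mitochondrial protein) at -0.21 ± 0.084, Tmem250-ps at -0.28 ± 0.0741 and Zfp469 at -0.12 ± 0.0927 (edgeR adjusted p = 0.233, 0.094 and 0.541). Tmem250-ps had 48.3, 47.8, 48.0 and 52.3 CPM in KO, against 62.3, 65.3, 55.2 and 55.2 CPM in WT, with no overlap. Gm26532 stood at -0.27 ± 0.138 (edgeR adjusted p = 0.339).

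**Figure D4:**
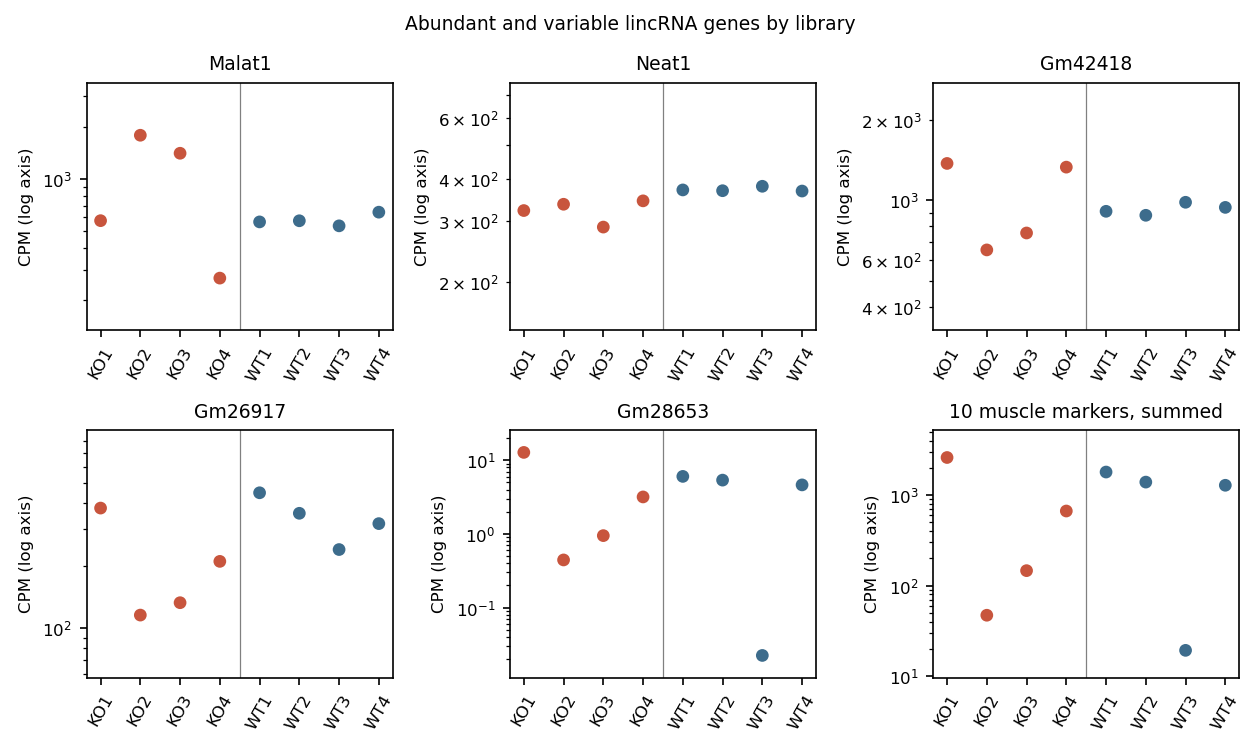
CPM (log axis) by library for Malat1, Neat1, Gm42418, Gm26917 and Gm28653 and for the summed 10 muscle markers, KO libraries left of WT libraries. Gm28653 is lowest in KO2, KO3 and WT3, the libraries with 47.0, 146 and 19.3 CPM of muscle markers, and Malat1 is highest in KO2 and KO3.

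Over the 115 genes the coefficient of variation across the 8 libraries had a median of 15.2%, against 13.1% over all tested genes, and ran from 4.49% to 99.9%. It was above 50% for 2 genes.

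A further set of known lincRNAs showed no call. Pvt1, next to Myc, had a log2 change of 0.14 ± 0.113 (edgeR adjusted p = 0.559) and Epb41l4aos -0.13 ± 0.135 (edgeR adjusted p = 0.674). Named after their values were seen, Gm14005 (Morrbid, a regulator of Bcl2l11 in mouse myeloid cells) stood at -0.23 ± 0.171, Lockd, next to Cdkn1b, at 0.30 ± 0.165, Dubr at 0.12 and Bvht (Braveheart) at 0.13 (edgeR adjusted p = 0.509, 0.374, 0.399 and 0.631). Close to the threshold without passing it, and named for their adjusted p, were Gm17300 at 0.50, Gm45605 at 0.74, Gm38901 at 0.66, D230017M19Rik at 0.47 and Gm20342 at 0.46 (edgeR adjusted p = 0.0537, 0.059, 0.0631, 0.0697 and 0.0744). Gm45605 averaged 3.15 ± 0.348 CPM in KO and 1.88 ± 0.331 CPM in WT (SD, n = 4 each). It had under 400 counts in WT and so met the minimum through the KO libraries.

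The coding neighbours had a median near that of all tested genes. For 100 lincRNAs the nearest coding gene was tested, 98 distinct genes. Over the 100 pairs the median distance was 1923 bases, the neighbours' median log2 change was 0.02 and 55 neighbours lay above 0. The share above 0 over all tested genes was 49.9%. Both genes lay above 0 in 41 pairs and both below in 13, while the lincRNA alone was above in 32 and the neighbour alone in 14. Among the 98 distinct neighbours, edgeR called 1 higher and 2 lower, where it called 0.445% of all tested genes higher and 0.874% lower.

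The neighbour of smallest adjusted p was Ccn1, a matricellular protein gene 331 bases from Gm17501. Gm17501 (chromosome 3, 145650312 to 145677580, plus strand) had 5.52, 6.63, 5.67 and 6.52 CPM in KO, against 9.17, 7.90, 8.15 and 7.24 CPM in WT. All KO libraries were below all WT libraries, with a log2 change of -0.42 ± 0.115 that missed the threshold (edgeR adjusted p = 0.104). Ccn1 fell to 57.5 ± 5.15 CPM in KO, against 102 ± 11.1 CPM in WT (SD, n = 4 each), a log2 change of -0.82 ± 0.0906 (edgeR adjusted p = 0.00144). The neighbour that rose was Kcnrg, 13100 bases from Gm27010, at 2.04 ± 0.368 CPM in KO and 0.945 ± 0.212 CPM in WT (log2 change 1.10 ± 0.227, edgeR adjusted p = 0.0358). Gm27010 itself had a log2 change of 0.31 (edgeR adjusted p = 0.264). These pairs were named after their values were seen.

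**Figure D5:**
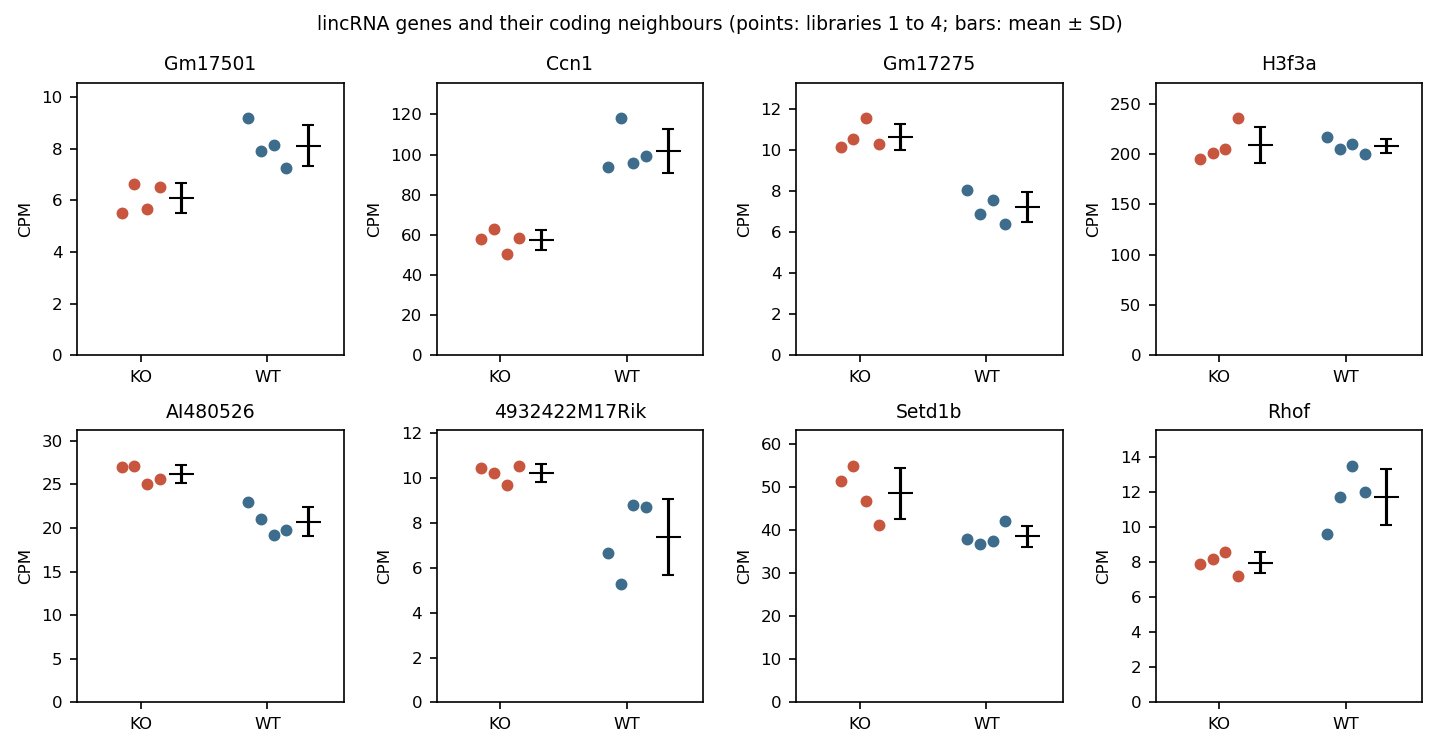
CPM (vertical axis, from 0) of lincRNA genes and coding neighbours, points for libraries 1 to 4 of each genotype and bars for mean ± SD. Gm17501 and Ccn1 are both lower in KO, Gm17275 is higher while H3f3a is level, and near Setd1b the lincRNAs are higher in KO while Rhof is lower (7.97 CPM in KO, 11.7 CPM in WT).

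The minimum of 800 counts is arbitrary. Just inside it lay Gm26767, C230035I16Rik and E230014E18Rik with 822, 817 and 815 counts and log2 changes of 0.12, 0.23 and 0.23. Each of these had under 400 counts in WT and so met the minimum through the KO libraries. Just outside were Gm28151, Gm26645 and Gm20707 with 799, 778 and 770 counts and log2 changes of 1.08, -0.55 and 0.04. Gm28151 was called higher (edgeR adjusted p = 0.0111) and was 1 count short of the minimum. A minimum of 400 counts gave 186 genes, of which 7 rose and 0 fell.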

How the data were processed

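Bulk RNA sequencing of calvaria from 4 KO and 4 WT newborn mice was analysed. The authors deposited unnormalised counts, whole numbers for each Ensembl ID and library. The submitters' processing notes name bcl2fastq 2.17 and STAR 2.5.2b, then featureCounts (Subread 1.5.2), and build mm10. Neither annotation release nor strand setting is given there. Gene types and coordinates came from GENCODE mouse release 21 (GRCm38), which held 49056 of 49315 IDs.

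Genes passing the default filter of edgeR 4.0.16 (filterByExpr, minimum count 10 and total 15) were scaled by TMM and compared by its quasi-likelihood test (robust, two-sided, Benjamini-Hochberg over all 17743 genes, threshold 0.05, R 4.3.3). CPM used TMM-scaled totals and RPKM the summed exon length. Log2 CPM of the lincRNA genes used no prior count. A prior count of 2 entered the muscle covariate and the correlations of same-numbered libraries only. A count of 3, taken as the floor, is up to 0.0848 CPM and covers counting error only. DESeq2 1.42.0 and limma-voom 3.58.1 were alternatives, beside other scalings, filters, thresholds, minimum totals, a replicate block, a muscle covariate and libraries left out.

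Groups and replicate numbers came from the sample titles. The genes named by rule were those called, the 8 of highest RPKM, listed known lincRNAs, and the 3 on each side of the minimum total; all others, the microRNA hosts included, were named after their values were seen. Members and lists were chosen with earlier results of these data known, so no list was tested as such.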

Additional observations from a re-analysis of the deposited data

Results flagged for a closer look

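Each genotype's 4 libraries were examined for a single library far from the other 3 in 23 named lincRNA genes, 46 groups in all. Dixon's criterion marked 3 groups, and chance marks about 1 in 20, or 2.3 of 46. Tmem250-ps had 52.3 CPM in KO4, against 47.8 to 48.3 CPM in the other KO libraries. Miat had 25.9 CPM in WT1, against 12.04 to 12.8 CPM in the other WT libraries. Gm26767 had 1.61 CPM in WT4, against 2.32 to 2.402 CPM in the other WT libraries.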

How the results depend on the processing

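Of the 115 lincRNA genes, 6 rose and 0 fell, and of all tested genes 79 rose and 155 fell. DESeq2 gave 18 and 2 lincRNAs, and 423 and 542 genes. An adjusted p under 0.1 gave 12 and 1 lincRNAs and 219 and 353 genes, and one under 0.01 gave 1 lincRNA that rose and 5 and 31 genes. Library totals gave 99 genes lower and a median of 0.19 for the lincRNAs, against 0.15, and 90 of the 115 above 0, where 61.0% of all genes were. Without a filter 248 genes were lower. Leaving out 1 library at a time gave 1 to 9 lincRNAs higher and 0 to 1 lower, 16 to 305 genes higher and 41 to 303 lower, with a median of 0.14 to 0.16 for the lincRNAs. BC055402 alone of the 6 remained called in every one of these 8 fits, with edgeR adjusted p from 0.00347 to 0.0237, and it was the only lincRNA called without KO2, KO3, WT2 or WT4; without WT3, Gm38901 was called beside it. The highest adjusted p was 0.0707 for 2700038G22Rik, 0.0817 for 2900076A07Rik, 0.0870 for Gm17275, 0.102 for Gm38102 and 0.113 for 5430416N02Rik. Without the 3 libraries low in muscle RNA, 0 lincRNAs and 2 genes were called higher and 6 genes lower, the median was 0.11 with 77 of the 115 above 0, and BC055402 had a log2 change of 1.20 (edgeR adjusted p = 0.0981); that fit has 2 KO and 3 WT libraries. With the replicate number as a block, 2 lincRNAs and 22 genes rose; same-numbered libraries correlated at 0.26, -0.18, 0.34 and -0.01, so the numbers are not treated as pairs. Among the lincRNAs without exon overlap 2 rose. Signs turned for Gm42418 without KO1 (-0.026, in a range of -0.03 to 0.32 over single libraries left out), for Malat1 (-0.49), E230014E18Rik (-0.11) and Gm26767 (-0.10) without the 3 low-muscle libraries, and for Gm26767 without WT4 (range -0.0018 to 0.23). Where not given by fewer libraries or genes, the cause was not tested. Without KO4, Tmem250-ps was called lower (edgeR adjusted p = 0.0475).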
